A study of Mus musculus with 32 samples.

Results

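The intervals described here are those in the distal 10 Mb of mouse chromosomes 1 to 19, the stretch next to the telomere that lies farthest from the centromere. They number 11190 of the 122081 intervals in 9 deposited lists, 117340 of which lie on these 19 autosomes. An interval was taken when its midpoint lay within 10 Mb of the chromosome's end, the end being the largest interval end on that chromosome in any list (build mm9, which is NCBIM37). The regions add up to 190 Mb. They were set against the middle of the same chromosomes, 2033 Mb that leave out the distal 10 Mb and the first 10 Mb after the first interval, with 97829 intervals.

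The lists come from ChIP-seq on mouse testis. RJ2 is the strain B10.MOLSGR(A)-(D17Mit58-D17Jcs11)/Bdm, which carries the Cst allele of Prdm9 on a C57BL/10 background. Mice without Spo11 (Spo11tm1M) and mice without Prdm9 (B6;129P2-Prdm9tm1Ymat/J) both carry a null allele in all their cells. B6 is C57BL/6JOlaHsd, with the Dom2 allele, and is the control for both mutants. Testes of several mice were pooled for each ChIP. PRDM9 was mapped in whole testis at 13 days post partum in these 4 genotypes, DMC1 in whole testis at 5 weeks in RJ2 and B6, and H3K4me3 in elutriated pachytene cells of adult RJ2 and B6 mice. Behind the lists stand 2 ChIP libraries for each of RJ2 PRDM9, B6 PRDM9, Spo11 KO PRDM9, RJ2 DMC1 and B6 DMC1, and 1 for Prdm9 KO PRDM9 and for H3K4me3 in each strain. PRDM9 peaks found in both strains are outside the 2 strain lists. H3K4me3 is given as intervals specific to RJ2, specific to B6 or common to both.

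PRDM9 is a zinc finger protein of early meiotic prophase that binds DNA by sequence and trimethylates histone H3 on lysine 4 nearby. SPO11 then cuts the DNA at some of the bound sites, and the recombinase DMC1 loads on the resected single strands, so that DMC1 intervals mark double-strand break hotspots. Mouse chromosomes have their centromere at one end, and crossovers in male mice are known to lie often toward the other. The Dom2 and Cst zinc fingers read different sequences, so the 2 strains have different hotspots on nearly the same genome. The paper places most H3K4me3 common to both strains at transcription starts or testis enhancers, and it is found with either Prdm9 allele.

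The sequences that PRDM9 peaks share were looked for first. They were learned in the middle only, so that their share in distal peaks had no part in choosing them. In the central 100 bp of PRDM9 peaks of the middle that held DMC1 and strain-specific H3K4me3 but no common H3K4me3 (class 1a), the 8-base words with the highest ratio over the same windows moved by 10 kb were taken, from every second peak in list order, on either strand. The leading word was atgtgacc in RJ2, followed by cacagccc, aaagtcac, ctttgacc and aaaggtca. In B6 it was ggtgctac, followed by gcagcacc, gaagctac, ctactacc and agtagcac. Several words of a strain overlap one another in part. A word had to occur in at least 2% of the learning peaks, a minimum set after the data were examined: without it the leading RJ2 word, cctctagc, was in 12 of 2655 learning peaks and in 0.377% of the other peaks, against 0.301% of their moved windows. The first 3 listed distal class 1a peaks of each strain that hold one of these words in their central 100 bp are shown as examples with 60 bases of the strand that reads the word, the word in capitals. Each site is on mm9 and its sequence is the reference one.
RJ2 chr4:147387433-147387492, minus strand, intron of Clcn6: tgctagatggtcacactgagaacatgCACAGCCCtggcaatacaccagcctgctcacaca
RJ2 chr2:179236693-179236752, minus strand, intron of Cdh4: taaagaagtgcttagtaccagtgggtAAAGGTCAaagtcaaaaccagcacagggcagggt
RJ2 chr16:93918151-93918210, minus strand, intergenic, 11.6 kb from the start of Cldn14: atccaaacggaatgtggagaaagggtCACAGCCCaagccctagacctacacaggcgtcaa
B6 chr19:60556078-60556137, minus strand, intergenic, 11.9 kb from the start of Prlhr: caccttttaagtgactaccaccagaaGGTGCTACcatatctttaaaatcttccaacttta
B6 chr19:61088475-61088534, minus strand, intron of Grk5: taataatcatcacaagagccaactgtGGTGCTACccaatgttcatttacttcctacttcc
B6 chr6:142810492-142810551, plus strand, intron of St8sia1: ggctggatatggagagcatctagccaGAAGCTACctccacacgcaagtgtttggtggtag

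Distal class 1a peaks held the words about as often as the middle ones that were not used to learn them. In RJ2, 65 of 578 distal class 1a peaks held at least 1 of the 5 RJ2 words in their central 100 bp (11.2%, 95% Clopper-Pearson interval 8.79 to 14.1), against 314 of 2655 in the middle (11.8%, 10.6 to 13.1). The windows moved by 10 kb held one in 1.90% of distal and 2.52% of middle cases. In B6, 20 of 107 distal class 1a peaks held at least 1 of the 5 B6 words (18.7%, 11.8 to 27.4), against 113 of 712 in the middle (15.9%, 13.3 to 18.8). The moved windows held one in 1.87% and 0.843%. The distal and middle intervals overlap in both strains, so no difference in word content was detectable at these numbers. In peaks with neither DMC1 nor H3K4me3 (class 2B), 7 of 293 distal and 48 of 2022 middle RJ2 peaks held 1 of the 5 RJ2 words (2.39% and 2.37%), and 2 of 27 distal and 13 of 211 middle B6 peaks held a B6 word (7.41% and 6.16%). Their moved windows held one in 1.37% of distal and 2.52% of middle RJ2 cases. In B6 it was 0 of 27 distal and 2 of 211 middle windows (0.948%). Class 2B peaks thus held words more often than moved windows in the middle of B6 but not of RJ2, which was not tested.

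DMC1 hotspots were denser in the distal regions than in the middle of the chromosomes in both strains. RJ2 had 1323 distal DMC1 intervals, 6.96 per Mb against 5.81 per Mb in the middle. B6 had 1318, 6.94 per Mb against 5.61 per Mb. Against the number expected from each chromosome's own middle, this is 1.19 times in RJ2 (adjusted permutation p = 0.00297, higher on 15 of 19 chromosomes) and 1.23 times in B6 (adjusted permutation p = 0.00261, 16 of 19). The test is a two-sided sign-flip permutation test of the excess per chromosome, with 100000 resamples, where the 19 chromosomes and not mice are the units, and p-values were Benjamini-Hochberg adjusted over the 9 lists. Over the chromosomes the distal density was 6.96 ± 1.24 per Mb in RJ2 and 6.94 ± 1.08 per Mb in B6 (SD, n = 19 each), against 5.84 ± 0.495 per Mb and 5.65 ± 0.483 per Mb in their middles. The difference between the strains in this excess was not past 0.05. On the log2 scale the RJ2 minus B6 difference was -0.04 ± 0.20 (SD over 19 chromosomes, adjusted permutation p = 0.330), with the RJ2 ratio higher on 4 of 19.

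Over the distal 10 Mb as a whole, PRDM9 intervals were denser than in the middle in RJ2, and in B6 no excess was found. RJ2 had 1015 distal PRDM9 intervals, 5.34 per Mb against 4.13 per Mb in the middle, which is 1.29 times the expected number (adjusted permutation p = 0.0110, higher on 12 of 19 chromosomes). B6 had 206, 1.08 per Mb against 1.09 per Mb in the middle, and a ratio of 1.001 (adjusted permutation p = 0.993, 10 of 19). The strain difference was 0.47 ± 0.84 on the log2 scale (RJ2 minus B6, SD over 19 chromosomes, adjusted permutation p = 0.0329 over 3 differences), with the RJ2 ratio higher on 12 of 19. That call was lost when chromosome 1, 8, 9, 14, 16 or 18 was left out, with differences of 0.35 to 0.56 over all such fits and an adjusted permutation p of at most 0.0644. The difference is a mean that weighs each chromosome alike, and B6 had 1 to 19 distal PRDM9 peaks per chromosome. Without chromosome 18, which had 1, it was 0.35.

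Strain-specific H3K4me3, which the paper reads as a mirror of PRDM9 activity, had a distal excess in RJ2 and none past the threshold in B6. Not all of these intervals lay at hotspots. A DMC1 centre of the strain touched 50.3% of distal and 51.5% of middle RJ2-specific intervals, and 49.0% and 57.6% of B6-specific ones. These shares were not tested. RJ2-specific intervals numbered 2209 in the distal regions, 11.6 per Mb against 9.62 per Mb (ratio 1.19, adjusted permutation p = 0.00303). B6-specific intervals numbered 849, 4.47 per Mb against 4.32 per Mb (ratio 1.03, adjusted permutation p = 0.652). The strain difference was 0.21 ± 0.33 on the log2 scale (SD, adjusted permutation p = 0.0329, RJ2 higher on 13 of 19 chromosomes), and it was not past 0.05 without chromosome 1, 9 or 16 (adjusted permutation p up to 0.0638). H3K4me3 common to both strains was also denser at the ends, with 3993 intervals at 21.0 per Mb against 16.2 per Mb (ratio 1.29, adjusted permutation p = 0.0110). The nearest neighbour of a common interval lay at a median of 2.65 kb in the distal regions and 2.58 kb in the middle. Common intervals need not be separate marked sites. Protein-coding genes had 10.7 starts per Mb in the distal regions and 8.77 per Mb in the middle. Of the common intervals, 29.7% of distal and 31.1% of middle ones had their midpoint within 1 kb of such a start.

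**Figure D1:**
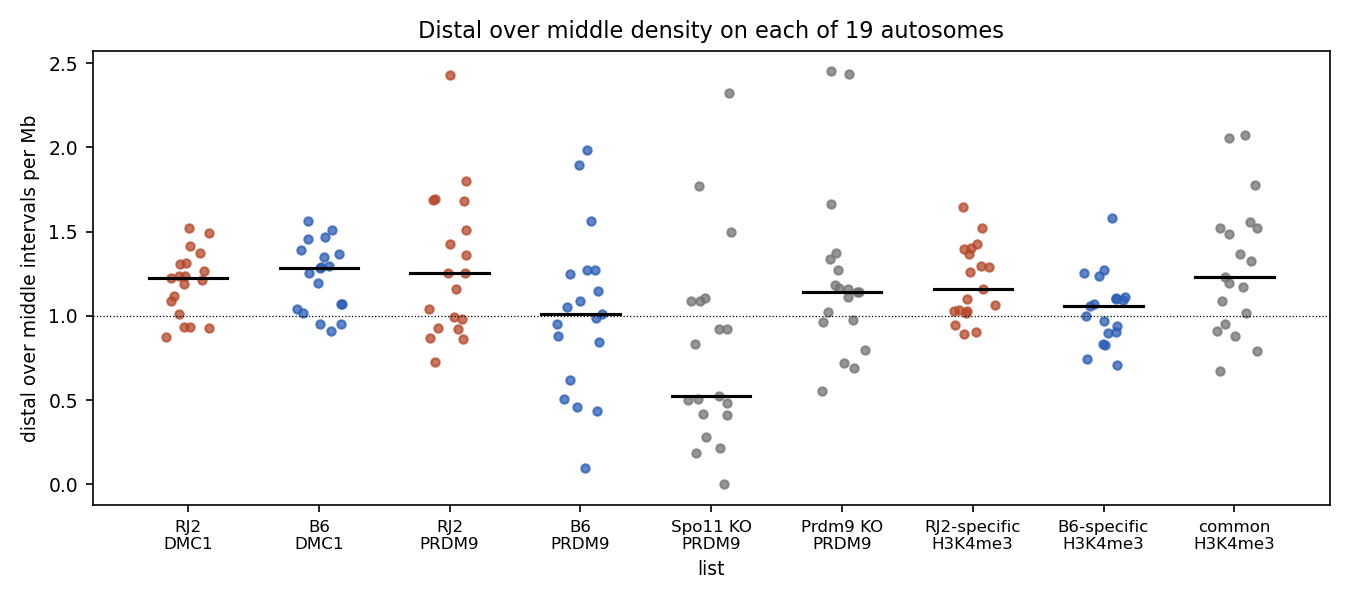
Distal over middle intervals per Mb for the 9 lists (y axis), with 1 point per autosome and the median as a bar. RJ2 lists are red, B6 lists blue and the others grey. Most chromosomes lie above 1 for DMC1 in both strains, and B6 PRDM9 spreads on both sides of 1.

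The distal over middle ratios spread more over the chromosomes for PRDM9 than for DMC1. B6 had 1 to 19 distal PRDM9 and 49 to 90 distal DMC1 intervals per chromosome, and the part of count size in the spread was not tested. The distal over middle ratio of RJ2 DMC1 had a lowest value of 0.876 on chromosome 10, a median of 1.23 and a highest value of 1.52 on chromosome 1. B6 DMC1 ran from 0.911 on chromosome 2 over a median of 1.28 to 1.56 on chromosome 1. RJ2 PRDM9 ran from 0.726 on chromosome 17 to 2.43 on chromosome 8, with 85 distal peaks. B6 PRDM9 ran from 0.0968 on chromosome 18, with 1 distal peak, to 1.99 on chromosome 6, with 19. Among the 10-Mb windows of each chromosome, 5 to 19 in number, the distal one ranked first for DMC1 on 6 chromosomes in RJ2 and on 5 in B6, and for PRDM9 on 4 in RJ2 and on 1 in B6. Within the distal regions 18 RJ2 DMC1 intervals was the highest number in 1 Mb, reached on chromosomes 4 and 9. The window on chromosome 4 was chr4:153609988-154609987, with 18 RJ2 and 10 B6 DMC1 intervals, 9 RJ2 PRDM9 and 0 B6 PRDM9 intervals. The last 1 Mb of chromosome 9, chr9:123030838-124030837, was the fullest for B6 DMC1, with 18 RJ2 and 16 B6 DMC1 intervals, 4 RJ2 PRDM9 and 0 B6 PRDM9 intervals.

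The distal 10 Mb were not uniform. B6 PRDM9 was densest in the last 1 Mb and thinned out inward, while DMC1 had its lowest distal density at the tip. From the end inward, B6 PRDM9 had 2 per Mb at 0 to 1 Mb, 1.53 at 1 to 2 Mb, 1.24 at 2 to 4 Mb, 0.895 at 4 to 6 Mb, 0.868 at 6 to 8 Mb and 0.658 at 8 to 10 Mb. It was back at 1.06 per Mb at 10 to 20 Mb and 1.3 at 20 to 30 Mb. B6 DMC1 had 5.84 per Mb in the last 1 Mb and its highest value, 8.03 per Mb, at 6 to 8 Mb. RJ2 DMC1 went the same way, with 5.26 per Mb in the last 1 Mb and 7.68 at 6 to 8 Mb. RJ2 PRDM9 had 4.16 per Mb in the last 1 Mb, 6.37 at 2 to 4 Mb and 5.58 at 10 to 20 Mb, so that its excess did not stop at 10 Mb. These values are sums over 19 chromosomes and were not tested bin by bin. With a distal window of 5 Mb no density excess passed 0.05 (DMC1 1.13 in RJ2 and 1.13 in B6, adjusted permutation p = 0.239 and 0.141).

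**Figure D2:**
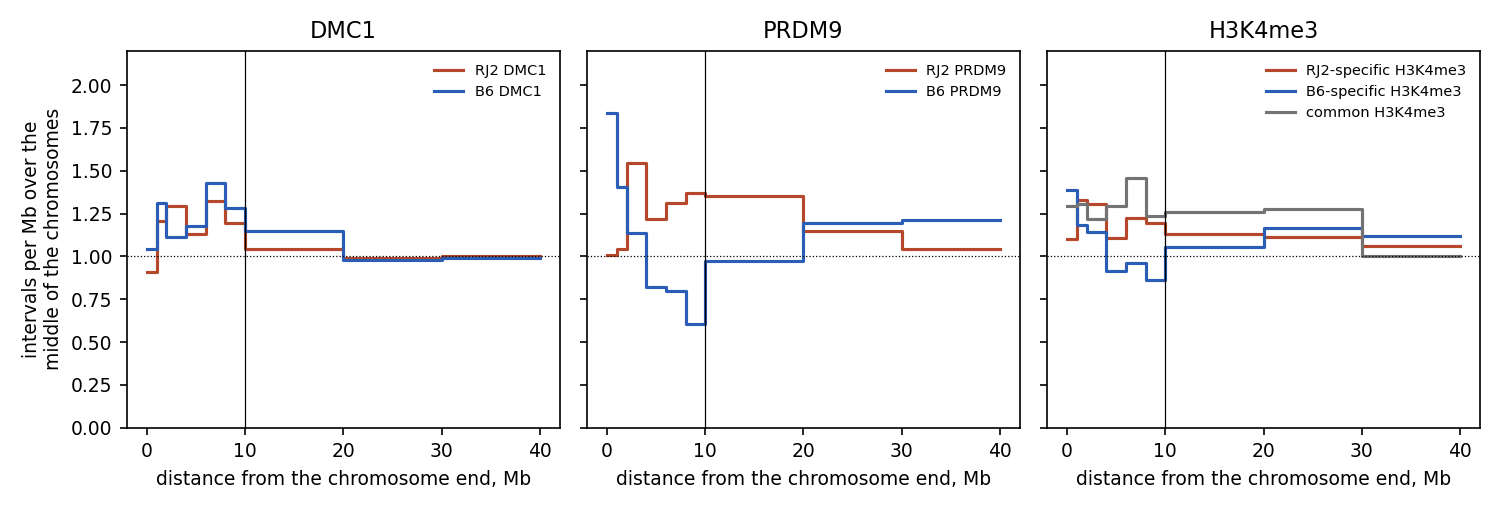
Intervals per Mb by distance from the chromosome end (x axis, Mb), divided by the density in the middle (y axis, 1 = dotted line), summed over 19 autosomes, for DMC1, PRDM9 and H3K4me3. The vertical line is at 10 Mb. B6 PRDM9 lies above its middle density in the first 4 Mb and below it from 4 to 10 Mb.

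Across the limit at 10 Mb, DMC1 and PRDM9 counts of the strains were close and some other lists were less so. Between 9 and 10 Mb and between 10 and 11 Mb from the end there were 125 and 137 RJ2 DMC1 intervals, 124 and 129 B6 DMC1 intervals, 89 and 75 RJ2 PRDM9 intervals, and 8 and 7 B6 PRDM9 intervals. B6-specific H3K4me3 had 61 intervals on each side. Common H3K4me3 had 360 inside and 295 outside the limit, and Spo11 KO PRDM9 had 9 and 3.

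The distal regions were richer in G and C. Their 1-Mb windows averaged 44.2% ± 3.89 GC (SD, 190 windows), against 41.8% ± 3.48 in the middle (SD, 2026 windows). Unknown bases took 0.634% of the distal and 0.946% of the middle length. When the expected number came from middle windows of the same GC content, in classes of 1 percentage point, DMC1 and PRDM9 parted. B6 DMC1 stayed at 1.16 times the expected number (adjusted permutation p = 0.0127), and RJ2 DMC1 was at 1.06 (adjusted permutation p = 0.191). The PRDM9 ratios turned below 1, to 0.872 in RJ2 (adjusted permutation p = 0.0396) and 0.741 in B6 (adjusted permutation p = 0.0127). B6-specific H3K4me3 was at 0.833 (adjusted permutation p = 0.0127), RJ2-specific H3K4me3 at 1.03 and common H3K4me3 at 0.907 (adjusted permutation p = 0.361 and 0.168). The strain differences in PRDM9 and in specific H3K4me3 had the same sign and call under this expectation, at 0.39 and 0.29 on the log2 scale, and that in DMC1 passed 0.05 at -0.13 (adjusted permutation p = 0.0341), whereas among intervals at least as wide as their list's median it passed in the other direction, at 0.15 (adjusted permutation p = 0.0310).

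**Figure D3:**
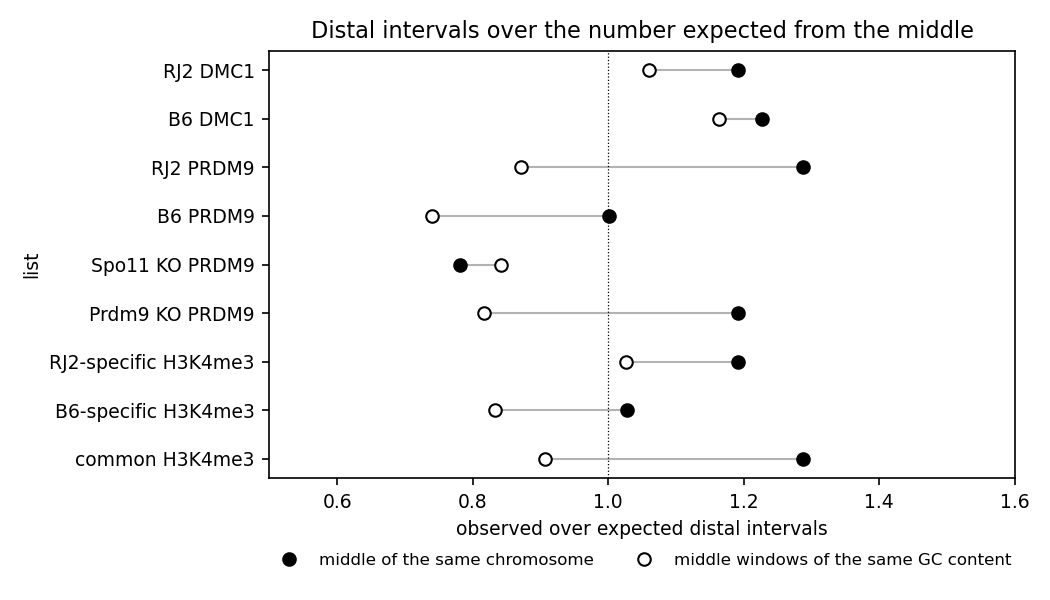
Observed over expected distal intervals (x axis) for the 9 lists, with the expectation from the middle of the same chromosome (filled) or from middle windows of the same GC content, pooled over all autosomes (open). DMC1 stays above 1 on both, and RJ2 PRDM9, B6 PRDM9 (from 1.001 to 0.741), Prdm9 KO PRDM9, B6-specific and common H3K4me3 move across 1.

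B6 hotspots of the distal regions overlapped called PRDM9 and B6-specific H3K4me3 intervals less often than those of the middle. A hotspot without a called interval may still be bound or marked. The paper proposes that its PRDM9 detection was less sensitive than its DMC1 detection, and the maps come from different ages and cells. A B6-specific H3K4me3 interval lay in the central 400 bp of 411 of 1318 distal B6 DMC1 intervals (31.2%, 28.7 to 33.8), against 4997 of 11406 in the middle (43.8%, 42.9 to 44.7). The shift from the chromosome's own middle was -12.4 percentage points (adjusted permutation p = 0.0123 over 6 marks, lower on 16 of 19 chromosomes). A B6 PRDM9 interval lay there in 121 of 1318 distal cases (9.18%, 7.68 to 10.9), against 1603 of 11406 in the middle (14.1%, 13.4 to 14.7), a shift of -4.72 points (adjusted permutation p = 0.0237, lower on 15 of 19). B6 DMC1 intervals with no PRDM9 and no H3K4me3 interval of either kind made up 844 of 1318 in the distal regions (64.0%, 61.4 to 66.6) and 5872 of 11406 in the middle (51.5%, 50.6 to 52.4). The distal ones without any mark held a B6 word in 59 of 844 cases (6.99%, 5.36 to 8.92), the middle ones in 356 of 5872 (6.06%, 5.47 to 6.70), and their windows moved by 10 kb in 1.303% and 0.988%.

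In RJ2 hotspots no shift passed the threshold. RJ2-specific H3K4me3 lay at 1093 of 1323 distal RJ2 DMC1 intervals (82.6%, 80.5 to 84.6) and at 83.8% in the middle (83.1 to 84.5), and PRDM9 at 46.9% (44.2 to 49.7) and 47.97% (47.1 to 48.9). The shifts were -1.51 and -1.05 points (adjusted permutation p = 0.336 and 0.624). For specific H3K4me3 the shift differed between the strains by 9.52 points (RJ2 minus B6, mean over chromosomes, SD 14.5, adjusted permutation p = 0.0332 over 3 differences, RJ2 above B6 on 15 of 19 chromosomes). This call was lost when chromosome 1, 2, 3, 4, 5, 9, 11, 13 or 15 was left out, with an adjusted permutation p of at most 0.0632. For PRDM9 the strain difference of 3.42 points did not pass (SD 10.7, adjusted permutation p = 0.183). Common H3K4me3 lay at 4.16% of distal and 3.30% of middle hotspots in RJ2 and at 4.32% and 3.71% in B6, with no shift past the threshold.

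The B6 deficit was deepest 4 to 10 Mb from the end and was not seen at the tip. Inward from the end, the share of B6 DMC1 intervals with B6-specific H3K4me3 was 51.4% at 0 to 1 Mb (57 of 111), 43.6% at 1 to 2 Mb, 39.1% at 2 to 4 Mb, 28.3% at 4 to 6 Mb, 21.0% at 6 to 8 Mb (64 of 305) and 23.8% at 8 to 10 Mb. It was 36.2% at 10 to 20 Mb, 47.3% at 20 to 30 Mb and 50.6% at 30 to 40 Mb. These bins were not tested, and the last 1 Mb varied by chromosome, with the mark at 7 of 7 B6 DMC1 intervals on chromosome 7, 1 of 16 on chromosome 9 and 0 of 12 on chromosome 4. PRDM9 followed the same course, with 27.9% at 0 to 1 Mb (31 of 111), 4.03% at 8 to 10 Mb (11 of 273) and 18.2% at 30 to 40 Mb. In RJ2 the share with PRDM9 stayed between 42.5% and 51.9% in every bin of the distal 10 Mb, and the share with RJ2-specific H3K4me3 was lowest at the tip, at 70.0% of 100 intervals. For a distal window of 5 Mb the B6 shifts were accordingly -1.85 points for H3K4me3 and -0.0037 for PRDM9, and neither passed (adjusted permutation p = 0.840 and 0.999).

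**Figure D4:**
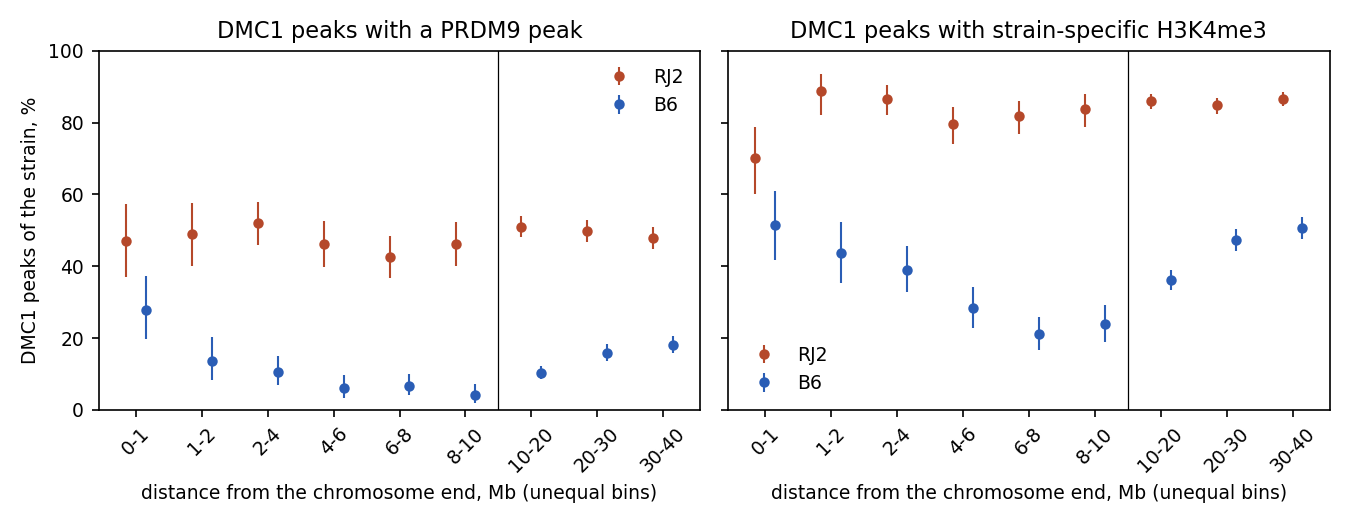
Share of DMC1 peaks (y axis, %) with a PRDM9 peak of the strain (left) or strain-specific H3K4me3 (right) in their central 400 bp, by distance from the chromosome end (x axis, bins of unequal size), with 95% Clopper-Pearson intervals. RJ2 is red and B6 blue, and the vertical line is at 10 Mb. In B6 both shares dip between 4 and 10 Mb.

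The B6 chromosomes differed, and the distal share was above the middle one on 3 of 19 for H3K4me3 and on 4 of 19 for PRDM9. Chromosome 6 had the highest distal H3K4me3 share. Its distal B6 DMC1 intervals had B6-specific H3K4me3 in 39 of 53 cases (73.6%), against 42.6% in its middle, and PRDM9 in 14 of 53 (26.4%), against 13.0%. At the other extreme, distal chromosome 15 had H3K4me3 at 14 of 90 (15.6%, middle 41.5%) and PRDM9 at 1 of 90. Without chromosome 6 the H3K4me3 shift was at its largest among the fits that leave out 1 chromosome, -14.3 points.

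Distal hotspots were also narrower in B6. The width of an interval is set by the caller and tends to grow with the signal, which the lists do not give. Distal B6 DMC1 intervals had a median width of 1682 bp, against 1764 bp in the middle, and a mean of 1724 ± 285 bp against 1795 ± 299 bp (SD over intervals). The shift from the own middle was -72.0 bp (adjusted permutation p = 4.4e-04 over 4 lists, lower on 18 of 19 chromosomes). In RJ2 the shift was -29.6 bp (adjusted permutation p = 0.0410, lower on 14 of 19), and it was not past 0.05 without any 1 of 11 chromosomes (1, 2, 3, 5, 6, 8, 9, 10, 11, 16 or 18, adjusted permutation p up to 0.0828). PRDM9 intervals showed no width shift past the threshold (21.0 bp in RJ2 and -15.0 bp in B6, adjusted permutation p = 0.101 and 0.336). Among intervals at least as wide as their list's median, B6 DMC1 was not denser at the ends (0.959 times the expected number, adjusted permutation p = 0.469), and RJ2 DMC1 was at 1.06 (adjusted permutation p = 0.359).

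Width and marks moved together. The DMC1 intervals of each strain were put in 5 width classes of equal size. In the narrowest class of B6 DMC1 intervals, which held 26.1% of distal and 18.7% of middle intervals, B6-specific H3K4me3 lay at 16.9% of distal and 16.5% of middle ones. In the widest class, with 13.1% of distal and 21.5% of middle intervals, it lay at 56.1% (48.3 to 63.6) of distal and 69.0% (67.1 to 70.8) of middle ones. Middle intervals of the same width class, pooled over all 19 autosomes, were made a further reference after the data were examined. Against them the B6 shift was -7.58 points for H3K4me3 (adjusted permutation p = 0.0851) and -1.72 for PRDM9 (adjusted permutation p = 0.290). Against middle intervals in windows of the same GC content, pooled alike and also added then, the shifts were -15.6 points (adjusted permutation p = 0.00114) and -7.10 points (adjusted permutation p = 0.00114). In RJ2 the share was 71.6% of distal and 70.9% of middle intervals in the narrowest class, and 84.0% and 88.9% in the widest.

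**Figure D5:**
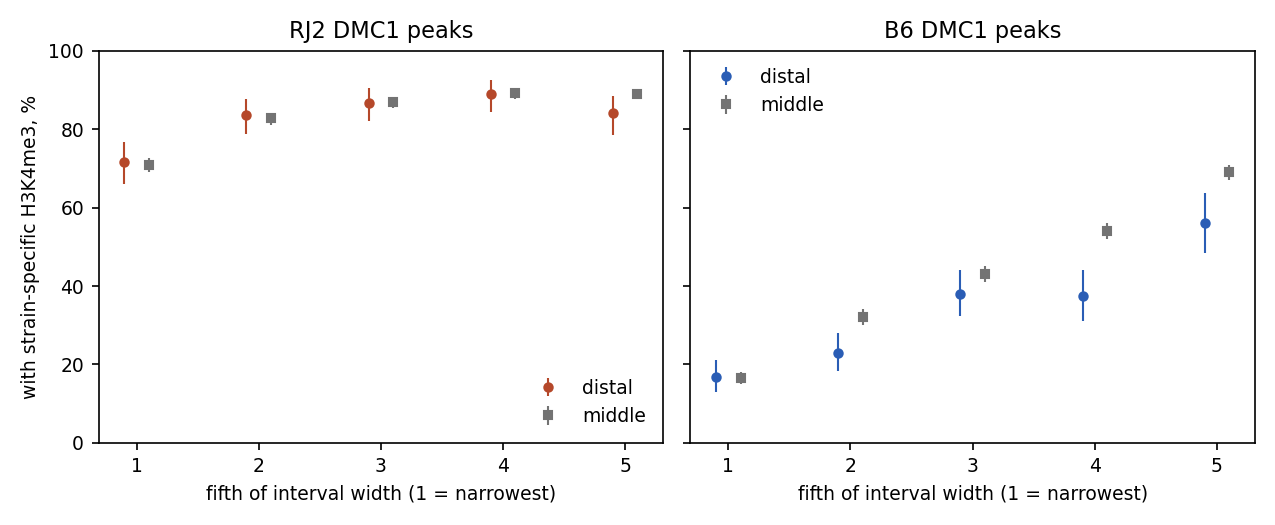
Share of DMC1 peaks with strain-specific H3K4me3 (y axis, %) by class of interval width (x axis, 1 = narrowest of 5), in distal (circles) and middle (squares) regions, with 95% Clopper-Pearson intervals, for RJ2 (left) and B6 (right). In B6 the distal share is 16.9% in class 1 and 56.1% in class 5, with classes 3 and 4 near each other, and it is below the middle one in classes 2 to 5.

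Read from the PRDM9 side, distal B6 peaks were less often hotspots. Of 206 distal B6 PRDM9 intervals 121 held a DMC1 centre (58.7%, 51.7 to 65.5), against 1603 of 2210 in the middle (72.5%, 70.6 to 74.4). The shift was -12.8 points (adjusted permutation p = 0.0174 over 8 marks, lower on 16 of 19 chromosomes). In RJ2 it was 621 of 1015 (61.2%, 58.1 to 64.2) against 67.6% (66.6 to 68.6), a shift of -6.22 points that did not pass (adjusted permutation p = 0.0713), and the 2 shifts did not differ past the threshold (6.60 points, SD 18.1, adjusted permutation p = 0.183). Against middle peaks in windows of the same GC content, the B6 shift was -7.63 points and did not pass (adjusted permutation p = 0.140), and the RJ2 shift turned to 4.20.

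The classes of B6 PRDM9 peaks are given as shares. Only class 2B had a test, which it did not pass. Class 1a made up 107 of 206 distal peaks (51.9%, 44.9 to 58.9) and 64.5% in the middle. Peaks with common H3K4me3 and no DMC1 (class 2A), which lie at promoters, made up 50 (24.3%, 18.6 to 30.7) and 17.2% (15.7 to 18.9). Of these 43 of 50 distal and 337 of 381 middle ones had their midpoint within 1 kb of a protein-coding start. Peaks with specific H3K4me3 and no DMC1 (class 1d) numbered 8 of 206 (3.88%, 1.69 to 7.51), against 15 of 2210 (0.679%, 0.380 to 1.12). Common H3K4me3 of any kind was at 28.2% of distal and 20% of middle peaks (7.77 points, adjusted permutation p = 0.0713). Peaks with neither DMC1 nor H3K4me3 (class 2B) were 13.1% and 9.55% (adjusted permutation p = 0.230). RJ2 had 578 distal class 1a peaks (56.9% against 63.3%), 43 of class 2A (4.24% against 4.35%) and 293 of class 2B (28.9% against 24.1%, adjusted permutation p = 0.230).

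PRDM9 peaks of Spo11 KO mice, in which no breaks are made, showed no distal shift in density past the threshold. Of 1070 Spo11 KO intervals 66 were distal, 0.78 times the expected number against their middle (adjusted permutation p = 0.154). Of these 18 lay in the last 1 Mb (0.947 per Mb, against 0.4497 per Mb in the middle), and 10 lay in a single stretch of chromosome 4, chr4:145663356-146985502. The 10 had neither B6 DMC1 nor an H3K4me3 interval at them, although the stretch also held 14 common H3K4me3 intervals. Without chromosome 4 the ratio was 0.698 (adjusted permutation p = 0.0253). Outside chromosome 4, 49 of 56 distal Spo11 KO peaks held a B6 DMC1 centre (87.5%, 75.9 to 94.8), against 93.6% (91.7 to 95.1) in the middle. Common H3K4me3 without DMC1 was rare at Spo11 KO peaks in both, at 0 of 66 distal (interval up to 5.44%) and 2 of 914 middle ones.

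The overlap with the control strain depended on the side from which it was read. Spo11 KO intervals overlapped 49 of 206 distal B6 PRDM9 peaks (23.8%, 18.1 to 30.2) and 797 of 2210 middle ones (36.1%, 34.1 to 38.1). Within class 1a the shares were 42 of 107 (39.3%, 29.95 to 49.2) and 51.7% (49.1 to 54.3), and within class 2A 0 of 50 and 0 of 381. Read from the Spo11 KO side, 49 of 66 distal intervals (74.2%) overlapped a B6 PRDM9 peak, against 87.2% in the middle. Outside chromosome 4 it was 49 of 56 distal (87.5%) and 749 of 857 middle ones (87.4%). These shares were not tested. In Prdm9 KO mice 211 background intervals were distal, 1.19 times the expected number (adjusted permutation p = 0.0570), and overlapped 41 of 1015 distal RJ2 PRDM9 peaks (4.04%, 2.91 to 5.44) and 2.35% (2.04 to 2.70) of middle ones.

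The hotspots of the 2 strains overlapped rarely anywhere. At the ends 45 of 1323 RJ2 DMC1 intervals overlapped a B6 one (3.401%, 2.49 to 4.53), against 2.60% (2.32 to 2.90) in the middle. The nearest neighbour of a distal DMC1 interval lay at a median of 47.3 kb in RJ2 and 45.9 kb in B6, against 52.8 kb and 57.1 kb in the middles. For every 100 DMC1 intervals there were 76.7 PRDM9 intervals in the distal regions and 71.0 in the middle in RJ2, and 15.6 and 19.4 in B6. In the last 1 Mb B6 had 34.2 and between 4 and 10 Mb 11.1. The central 200 bp of DMC1 intervals had a median GC content of 46.0% in the distal regions and 44.0% in the middle in both strains.

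Single sites show the classes. The first-listed distal class 1a peaks of RJ2 in the deposited order, for which no source states what it ranks, were chr5:144360374-144361397 (position 6, intergenic, 22444 bp from the start of Cyth3), chr19:58438763-58440101 (position 8, intron of Gfra1, a receptor of glial-derived neurotrophic factor) and chr14:121881103-121882089 (position 18, intron of Slc15a1, a peptide transporter). The third holds an RJ2 word elsewhere in the interval, outside the central 100 bp in which words were counted, printed on the plus strand from chr14:121881306-121881365.
RJ2 chr14, intron of Slc15a1: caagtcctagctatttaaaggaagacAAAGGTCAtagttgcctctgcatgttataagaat
Those of B6 were chr6:147597816-147599173 (position 11, intergenic), chr8:124344807-124346063 (position 12, intron of Klhdc4) and chr16:97764929-97765631 (position 24, intron of Mx2, an interferon-induced GTPase), none with a B6 word in the interval. The chromosome 16 site is also the first-listed distal peak in Spo11 KO mice, at position 9 of that list.

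Class 2A peaks are named here at gene starts in list order. The median list position of the 50 distal B6 class 2A peaks was 1432 and that of the 381 middle ones 1247, of 2601, and the 5 named here are the first of theirs by choice. The first at a start was at Eif4a3, an RNA helicase of the exon junction complex, at chr11:119161202-119161780, position 19 of 2601. The next were at Eif5, a translation initiation factor (position 32), Arf3, a small GTPase (103), Fubp1, a single-strand DNA binding protein (141), and Zzz3, a chromatin reader subunit (151). Their central 200 bp had 66.0% to 68.5% GC. In RJ2, where the 43 distal class 2A peaks had a median position of 6046 and the 365 middle ones 6344, the first, at 2310067B10Rik, came at position 1798 of 10121, followed by those at Lars2, the mitochondrial leucyl-tRNA synthetase (2044), Gm5151 (2923), Deb1 (3633) and Katnal1, a katanin-like microtubule-severing protein (3659). The first distal peaks of the no-mark class were chr8:123896549-123897282 in RJ2 (position 603) and chr8:125897454-125897806 in B6 (position 1123, 95 bp from the start of Tcf25).

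The widest distal B6 DMC1 intervals lay close to the tips. They were 3816 bp at chr11:121602955-121606770, 0.151 Mb from the end and with PRDM9 and B6-specific H3K4me3, 3616 bp at chr9:123759359-123762974 beside the start of Fyco1, with common H3K4me3, and 3374 bp at chr13:120277007-120280380, 0.0055 Mb from the end and with B6-specific H3K4me3. In RJ2 the widest lay 7.43 to 8.76 Mb from the end: 3598 bp at chr12:113765860-113769457, 3178 bp at chr6:140754147-140757324 and 3148 bp at chr5:144695525-144698672, in an intron of Pms2, a mismatch repair gene. All 3 held an RJ2 PRDM9 peak. The most distal DMC1 intervals were 0.84 kb from the end of chromosome 14 in RJ2, 3515 bp from the start of Fgf14, and 0.686 kb from the end of chromosome 7 in B6, 14828 bp from the start of Mrgprd. Both held PRDM9 and strain-specific H3K4me3. The most distal PRDM9 intervals were on chromosome 13 in RJ2, in an exon of Gm7120 and with neither mark, and on chromosome 7 in B6, within the same hotspot near Mrgprd. Since the ends were read from the intervals, these distances are to the last interval and not to the telomere.

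Of 42 names in a list of meiotic recombination genes, some of them aliases of one another, 35 were found on the autosomes of the annotation. Of these genes 5 start in the distal regions. These are Brca2, which loads the recombinases, Msh4, which stabilises crossover intermediates, Spo11 itself, and Syce1 and Sycp2, parts of the synaptonemal complex. Common H3K4me3 lay within 1 kb of the start of 4 of the 5, all but Spo11, as it did for 30 of the 35 listed genes (85.7%) and for 49.2% of all 21418 autosomal protein-coding starts. The start of Spo11, at chr2:172803201 and 8.85 Mb from the end, had an RJ2 PRDM9 peak 2.41 kb away, and its nearest B6 PRDM9 peak was at 73.3 kb. For Msh4 the nearest PRDM9 peaks were at 6.64 kb in RJ2 and 7.09 kb in B6. A B6 DMC1 interval lay 2.59 kb from the start of Sycp2 and an RJ2 one 17.3 kb from it.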

How the data were processed

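The series holds 32 libraries, 22 of which (13 ChIP and 9 input) lie behind the 9 interval lists, and 10 libraries of H3K36me3 were not analysed here. Per the paper's methods, the authors mapped PRDM9 reads to mm9 with Bowtie2 and DMC1 reads with a modified BWA for single-stranded DNA, called peaks of both with MACS2 and kept a number of pooled-replicate peaks set by the irreproducible discovery rate. Prdm9 KO peaks were called at a relaxed p-value. For H3K4me3 the methods name Bowtie2 in one place and Bowtie in another, with an earlier MACS, and keep peaks found in each of several sets of reads. The deposited lists give interval starts and ends, with no score, no count and no value per replicate, so the depth behind each interval is unknown and exact binomial (Clopper-Pearson, 95%) intervals cover the sampling of intervals only, not mice. PRDM9 lists are not in order of position. The methods rank peaks by p-value to select them, and whether the deposited order keeps that ranking is not given in the sources used here.

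Distal regions were the last 10 Mb of each of 19 autosomes, and the middle excluded 10 Mb at each side. Marks at DMC1 were overlaps of at least 1 bp with the central 400 bp. H3K4me3 at PRDM9 had to cover at least 10% of the interval. All 33 tests were two-sided sign-flip permutation tests over chromosomes with 100000 resamples (the smallest p they can give is 1e-05), adjusted by Benjamini-Hochberg within 6 families. Log2 density ratios had 0.5 added to each count. Neighbouring intervals and chromosomes of the same animals are not independent replicates, and p-values measure only the spread between chromosomes. The code (Python 3.11.15, numpy 2.4.6, scipy 1.17.1, matplotlib 3.10.9) was tested on simulated data.

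The regions, lists, marks and rules were chosen with earlier results of these data known. Named sites are, per strain, the first 3 distal class 1a peaks, the first of classes 2A and 2B, 5 class 2A peaks at starts, the 3 widest and the most distal intervals, and the fullest 1-Mb window. For Spo11 KO the rule names the first distal peak and all of class 2A. Chromosomes with the highest and lowest ratios and distal genes of a meiotic list are also named. Example sites of sequences leave out chromosome 18. Sequences come from NCBIM37 and gene names from GENCODE M1. Alternatives changed the window, the middle, the overlap rules, the intervals kept, the length without unknown bases, the GC content and width of the compared intervals, and left out each chromosome.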

Additional observations from a re-analysis of the deposited data

Results flagged for a closer look

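Each of the following 3 values is a difference between the strains in a shift that was measured the same way in both, and each passed 0.05 in the sign-flip permutation test of that difference over 19 chromosomes. The distal excess of PRDM9 intervals was 0.47 higher in RJ2 than in B6 on the log2 scale (means over chromosomes 0.30 in RJ2 and -0.17 in B6, adjusted permutation p = 0.0329, RJ2 higher on 12 of 19). Each chromosome weighs the same in these means, and distal B6 PRDM9 counts per chromosome ran from 1 to 19. With counts summed over chromosomes, the ratio to the expected number was 1.29 in RJ2 and 1.001 in B6. The distal excess of strain-specific H3K4me3 was 0.21 higher in RJ2 than in B6 (0.24 in RJ2 and 0.03 in B6, adjusted permutation p = 0.0329, 13 of 19). The distal shift in the share of DMC1 intervals with strain-specific H3K4me3 was 9.52 percentage points higher in RJ2 than in B6 (-1.41 in RJ2 and -10.9 in B6, adjusted permutation p = 0.0332, 15 of 19). None of the 3 passed with a distal window of 5 Mb (0.11, 0.0419 and -0.865, the last reversed) or with the central 20 Mb of each chromosome as the middle (0.38, 0.18 and 9.21). The calls were also lost on leaving out any 1 of 6, 3 and 9 single chromosomes, with an adjusted permutation p of up to 0.0644, 0.0638 and 0.0632. The B6 PRDM9 list, with 2601 intervals, is shorter than that of RJ2, with 10121, and the part of list length in these differences was not tested.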

How the results depend on the processing

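No paired analysis was possible because the deposited lists pool the replicates. Ratios are distal over middle density, shifts are percentage points of intervals, and adjusted p-values come from the permutation test over chromosomes. The cause of the changes listed here was not tested. Leaving out a chromosome or narrowing the window also leaves fewer intervals.

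With a distal window of 5 Mb, 18 of 33 results kept direction and call. Density ratios lost the call for RJ2 DMC1 (1.13), B6 DMC1 (1.13), RJ2 PRDM9 (1.24), RJ2-specific H3K4me3 (1.19) and common H3K4me3 (1.23), and that of Spo11 KO turned to 1.09. The RJ2 minus B6 log2 differences fell to 0.11 for PRDM9 and 0.0419 for specific H3K4me3 without passing, and the strain difference in H3K4me3 at DMC1 turned to -0.865. Shifts were -0.0037 for PRDM9 and -1.85 for specific H3K4me3 at B6 DMC1, -8.46 for DMC1 at B6 PRDM9 (none past 0.05), with reversals to 1.17 for PRDM9 at RJ2 DMC1 and -0.0405 for B6 class 2B. The RJ2 DMC1 width shift was -36.8 bp (adjusted permutation p = 0.0969).

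With 20 Mb, 23 of 33 were the same. Newly past 0.05 were Spo11 KO (0.738), Prdm9 KO (1.32), DMC1 (-10.9), specific H3K4me3 (-9.16) and class 2B (9.35) at RJ2 PRDM9, and specific H3K4me3 at B6 PRDM9 (-7.86). Reversed were B6 PRDM9 density (0.987), PRDM9 (1.38) and specific H3K4me3 (0.352) at RJ2 DMC1, and common H3K4me3 at RJ2 PRDM9 (-0.0976). With the central 20 Mb of each chromosome as the middle, 24 of 33 were the same. Calls were lost for common H3K4me3 (1.31), the log2 strain differences in PRDM9 (0.38) and specific H3K4me3 (0.18), PRDM9 at B6 DMC1 (-5.02), DMC1 at B6 PRDM9 (-13.0) and the strain difference in H3K4me3 at DMC1 (9.21). DMC1 at RJ2 PRDM9 passed (-13.4), and common H3K4me3 at RJ2 PRDM9 (-0.114) and B6 PRDM9 width (6.50 bp) reversed.

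Without unknown bases only B6 PRDM9 changed of 12 results, to 0.999. Against middle windows of the same GC content, RJ2 DMC1 (1.06) and RJ2-specific H3K4me3 (1.03) lost the call, RJ2 PRDM9 (0.872), B6 PRDM9 (0.741), Prdm9 KO (0.816), B6-specific (0.833) and common H3K4me3 (0.907) reversed, and the DMC1 strain difference passed (-0.13). Among intervals at least as wide as the median, RJ2 DMC1 (1.06), PRDM9 at B6 DMC1 (-5.43) and DMC1 at B6 PRDM9 (-9.19) lost the call. B6 DMC1 (0.959), B6 PRDM9 (0.949), B6-specific H3K4me3 (0.939), the DMC1 strain difference (0.15, past 0.05), PRDM9 at RJ2 DMC1 (2.03), common H3K4me3 at RJ2 PRDM9 (-0.294) and B6 class 2B (-0.219) reversed.

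Among comparisons added after the data were examined, middle peaks in windows of the same GC content reversed DMC1 (4.20), specific (5.57), common (-1.25) and class 2B (-4.03) at RJ2 PRDM9 and common H3K4me3 at B6 DMC1 (-0.179), and DMC1 at B6 PRDM9 lost the call (-7.63). Middle peaks of the same width class reversed PRDM9 at RJ2 DMC1 (0.895), and PRDM9 (-1.72) and specific H3K4me3 (-7.58) at B6 DMC1 lost the call. On the log2 scale the RJ2 PRDM9 width shift passed (0.0538, adjusted permutation p = 0.0415). The 14 results refitted with the whole DMC1 interval, and 1 bp of H3K4me3 for PRDM9, did not change.

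Leaving out each chromosome in turn gave 627 values, of which 571 kept direction and call, 29 lost the call, 13 gained it and 14 reversed. Ranges were 0.953 to 1.05 for B6 PRDM9, 0.698 to 0.821 for Spo11 KO, 1.14 to 1.22 for Prdm9 KO and 0.999 to 1.05 for B6-specific H3K4me3 density. The log2 strain differences ran from 0.35 to 0.56 for PRDM9 and from 0.18 to 0.24 for specific H3K4me3. Shifts at RJ2 PRDM9 ran from -7.14 to -4.20 for DMC1 and from -0.313 to 0.690 for common H3K4me3, and at B6 PRDM9 from -10.1 to -5.53 for specific and from 6.11 to 9.33 for common H3K4me3. Width shifts ran from -35.4 to -21.2 bp for RJ2 DMC1 and from 17.0 to 27.2 bp for RJ2 PRDM9. Strain differences in shifts ran from 2.67 to 5.11 for PRDM9 at DMC1, from 8.61 to 12.1 for specific H3K4me3 at DMC1 and from 3.98 to 8.83 for DMC1 at PRDM9.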
